A study of Rattus norvegicus with 43 samples.

Results

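Rat primary hepatocytes after 24 h in culture (T24 RPH) were compared with the livers they came from (Liver), across all genes on the array. Cells at this age are where drug treatment of hepatocyte cultures usually begins, so the comparison describes the starting state of such an experiment against intact tissue. The members were taken by their sample labels: 6 of the 15 biological samples of the series, 3 T24 RPH and 3 Liver, measured on 18 of 43 arrays. The comparison and the gene lists below were chosen with earlier results of these data known. Both groups came from the same 3 male Sprague Dawley rats, and the sources used here do not give their age. Per the paper, the rats were injected with sodium pentobarbital and killed by exsanguination. No other drug is described for them.

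For T24 RPH, cells were freed by collagenase perfusion, plated on collagen-coated plates and kept in William's E medium with insulin, transferrin and dexamethasone, with serum for the first 4 h and without it from then on. For Liver, a lobe of the same liver was tied off before perfusion and lysed directly, so that it held all the cells of the tissue and its blood. The 0 h cell pellet (T0 RPH) and the cells at 48 h (T48 RPH) serve below to place the 24 h state. Each sample was measured on RG230-2 arrays 3 times (2 times for 1 of the 48 h samples), and the technical arrays of a rat were averaged on the log2 scale. In these bulk samples fewer cells of a type and less RNA per cell cannot be told apart. The lobe and the cultures differ in tissue integrity, medium, dexamethasone and time after isolation at once, and these cannot be told apart either.

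Hepatocytes make most plasma proteins, bile acids, glucose and urea, and carry the cytochrome P450 enzymes, conjugating enzymes and membrane transporters that clear drugs. These functions depend on a set of liver-enriched transcription factors, on hormones such as growth hormone, glucagon and glucocorticoids, and on contact with neighboring cells and matrix. Hepatocytes placed in flat culture are known to flatten, build stress fibers and lose part of this program, a process called de-differentiation. The liver also holds sinusoidal endothelial cells, Kupffer cells, stellate cells, bile duct cells and leukocytes, and purification of hepatocytes leaves part of them behind.

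The deposited values are MAS5 signals, a linear measure of hybridization per probe set (the group of short probes that reports a transcript), scaled by array. The median signal of an array lay between 84.4 and 111.3 for the 9 T24 RPH arrays, against 108.4 to 145.3 for the 9 Liver arrays. Control probe sets at both ends of beta-actin give a 3' to 5' ratio, which rises when RNA is degraded and was 2.23 to 2.503 in T24 RPH and 3.21 to 6.96 in Liver, with the highest value in the liver of rat 1, so that RNA quality and group cannot be told apart. The spread between rats (median SD of log2 signal) was 0.233 in T24 RPH and 0.224 in Liver, against 0.136 and 0.151 between technical arrays of the same sample. In the pattern of deviations from the group means, the T24 RPH of each rat followed that rat's T48 RPH (r = 0.466 to 0.587 across genes, which are not independent replicates), whereas for rats 1 and 2 liver and T24 RPH did not deviate together (r = -0.0114 and -0.155). The T24 RPH labelled rat 2 was closest to the liver labelled rat 1 (r = 0.196). The fit reported here does not use the rat numbers, and no fold change below subtracts a liver from cells by rat. Where a fit with rat as a replicate block called a gene that is described here as not called against Liver, the adjusted p with the rat block is given beside it.

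All values of single genes below are signals of rats 1, 2 and 3 in that order. Each fold change is the difference T24 RPH minus Liver of mean log2 signal (the log2 change, n = 3 each). Its standard error follows after ± and comes from the spread within groups, pooled over all 15 samples of the fit. Adjusted p-values are those of limma over the 10643 genes tested. A gene was called at an adjusted p under 0.05. Signals of different probe sets are not on a common scale, so levels are compared within a gene. Probe sets of close relatives, such as globins, P450 enzymes and glutathione transferases, may also report each other, which was not tested.

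Of 10643 genes, 5067 were called, 2525 higher (23.7% of all genes tested) and 2542 lower (23.9%) in T24 RPH than in Liver. Among these, 1082 were more than 2-fold higher (10.2%) and 1582 more than 2-fold lower (14.9%). Large differences were mostly falls: 266 genes were over 4-fold higher and 562 over 4-fold lower, and 35 genes were over 16-fold higher and 80 over 16-fold lower. The 3 values of the groups did not overlap in 4941 of the 5067 called genes, and in 6171 of all 10643 genes (3081 with T24 RPH above and 3090 with T24 RPH below Liver). The median log2 fold change over all genes was 0.00103 on the deposited scale. Centring each array on its median moved it to 0.417 and turned the split to 4234 higher and 1457 lower, while quantile normalization moved it to 0.0517 with 2714 higher and 2368 lower. Shares of higher and lower genes are therefore read against the background of the same scale. Of the 57 gene lists below, 10 had medians whose sign turned under one of these scales: acute phase proteins, cholesterol synthesis, gluconeogenesis, oxidative phosphorylation, glucocorticoid targets, immediate early genes, endoplasmic reticulum chaperones, TGF-beta signaling, growth factor receptors and cholangiocyte markers. Median centring gave 7 lower and 8 higher in both the glucocorticoid and the growth factor receptor list. It gave 0 lower and 5 higher in cholesterol synthesis, 4 lower and 16 higher in immediate early genes, and 7 lower and 7 higher in liver-secreted hormones. That scale raised the median of all genes as well. Minus that median, cholesterol synthesis was at -0.107 and oxidative phosphorylation at -0.263, near their medians of -0.106 and -0.262 on the deposited scale.

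**Figure D1:**
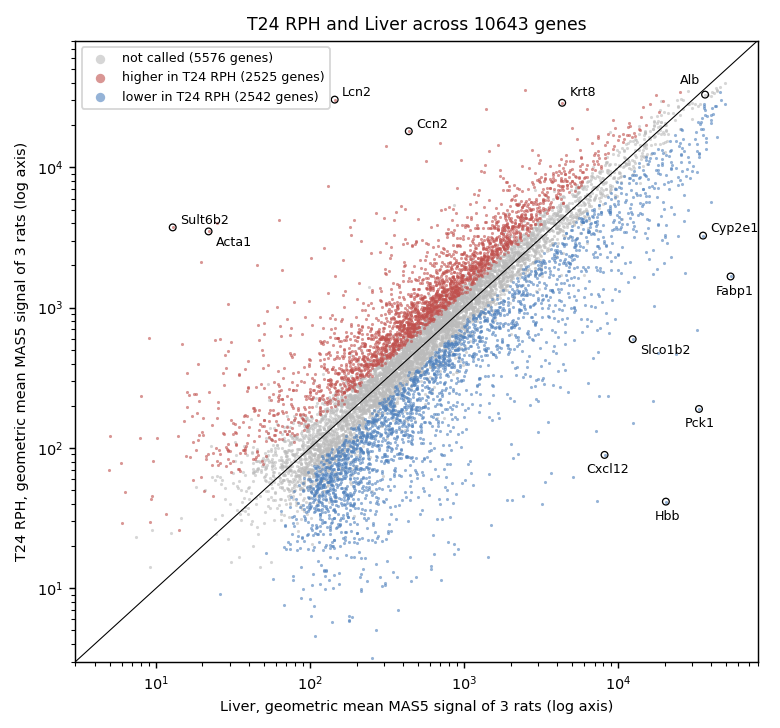
Geometric mean MAS5 signal of 3 rats in T24 RPH (vertical, log axis) against Liver (horizontal, log axis) for the 10643 genes tested, with the 2525 genes called higher in red, the 2542 called lower in blue and the rest in grey; the line marks equality. Bright genes with large falls such as Fabp1, Pck1 and Slco1b2 lie far below the line, Lcn2, Ccn2 and Acta1 lie far above it, and Alb lies on it.

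Among the 12 largest rises of genes with a signal over 500 were a sulfotransferase, a lipocalin and an intestinal receptor. Sult6b2, a cytosolic sulfotransferase, gave signals of 3709.5, 4307 and 3265 in T24 RPH, against 9.46, 9.78 and 22.8 in Liver (log2 change 8.19 ± 0.39, adjusted p = 9.75e-09). Lcn2, the siderophore-binding lipocalin of the acute phase, gave 26704, 29896 and 35276 in T24 RPH and 102, 181 and 162 in Liver (log2 change 7.72 ± 0.53, adjusted p = 2.12e-07). Gucy2c, the intestinal receptor of guanylin, gave 4662, 2485 and 5609 in T24 RPH and 34.9, 24.2 and 17.9 in Liver (log2 change 7.35 ± 0.45, adjusted p = 8.12e-08). The rule for these 12 genes required that the groups do not overlap, so their separation was fixed by the choice. Where a group's signal is below 32 the size of the fold rests on very dim values. After adding 32 to every signal, the log2 fold change of Sult6b2 was 6.36 and that of Gucy2c 6.07, both still called. The other 9 were Acta1 (skeletal muscle actin), B3galnt1 (a glycolipid-synthesizing transferase), Il1r2 (the decoy receptor of interleukin 1), Rnd1 (a small GTPase), Gstm3 (a mu class glutathione transferase), S100a6 (a calcium-binding protein), Ppl (the desmosomal linker periplakin), Ccn2 (connective tissue growth factor) and Pglyrp1 (a peptidoglycan-binding protein), with log2 fold changes between 5.23 and 7.32.

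The largest falls included globin genes, endothelial genes and hepatocyte enzymes. Pck1, the key enzyme of gluconeogenesis, gave 178, 230.0 and 167 in T24 RPH against 36421, 35916 and 28362 in Liver (log2 change -7.46 ± 0.30, adjusted p = 2.11e-09), a fall of 176-fold. The beta globin gene Hbb gave 29.7, 18.2 and 132 in T24 RPH and 5219, 41369 and 38946 in Liver (log2 change -8.94 ± 1.05, adjusted p = 1.94e-05), with the liver of rat 1 well below the livers of rats 2 and 3. The alpha globin Hba-a3 (-7.45) and the red cell heme enzyme Alas2 (-6.43) fell with it, and so did Cdc25b (-5.96), a cell cycle phosphatase. In Liver, Cdc25b gave 172, 1049.8 and 1965 and Alas2 240.4, 2532 and 4869, both lowest in rat 1 and highest in rat 3. The chemokine gene Cxcl12 gave 114, 80.5 and 77.5 in T24 RPH and 8629, 7687 and 8119 in Liver (log2 change -6.51 ± 0.19, adjusted p = 1.48e-10). The remaining 6 of the 12 largest falls were Gstp3 (a pi class glutathione transferase), Igfals (the acid-labile subunit that holds IGF-1 in plasma), Stac3 (a muscle excitation adaptor), Sult1c3 (a sulfotransferase), Slc13a4 (a sulfate transporter) and Kdr (the VEGF receptor of endothelium), with log2 fold changes between -6.37 and -5.77.

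The P450 enzymes oxidize drugs, steroids and fatty acids and are the main determinant of drug clearance in hepatocytes. Of 30 P450 and related genes tested, 20 fell, 4 rose and 6 were not called, with a median log2 fold change of -1.27. Cyp2e1, which oxidizes ethanol and paracetamol, gave 4104, 1756 and 4831 in T24 RPH and 34862, 35454 and 36005 in Liver (log2 change -3.44 ± 0.32, adjusted p = 2.71e-06). The male-specific Cyp2c11 gave 8676, 11297 and 8330.2 in T24 RPH and 33034, 32822 and 30778 in Liver (log2 change -1.78 ± 0.19, adjusted p = 9.73e-06). Cyp2a2, another male-typical steroid hydroxylase, gave 1855, 2117 and 1734 in T24 RPH and 19023, 15494 and 18868 in Liver (log2 change -3.22 ± 0.14, adjusted p = 4.88e-09). None of these 3 enzymes had a T24 RPH value inside its Liver range, and the groups did not overlap in 6171 of all 10643 genes. Cyp2a1 (-3.08 ± 0.29) and Cyp2c7 (-2.91 ± 0.30) fell as well.

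The dioxin-inducible Cyp1a2 gave 6954, 5189.8 and 11609.8 in T24 RPH and 20032, 27677 and 25568 in Liver (log2 change -1.69 ± 0.28, adjusted p = 0.000258), and Cyp3a2, the main male rat CYP3A enzyme, gave 11920.0, 6665 and 11563 in T24 RPH and 29965, 26012 and 27681 in Liver (log2 change -1.52 ± 0.34, adjusted p = 0.00233). The fall of Cyp3a2 was not called with the 3'/5' actin ratio as a covariate. Cyp1a1 was dim and uneven: its signals were 364, 8.42 and 363 in T24 RPH and 9.81, 13.5 and 90.3 in Liver, and the groups overlapped (adjusted p = 0.255). Cyp3a9 also overlapped between the groups, with 589, 1017 and 351 in T24 RPH and 1608, 1593 and 796 in Liver (adjusted p = 0.122, or 0.00108 with the rat block). Cyp2f4 (0.18 ± 0.20, adjusted p = 0.474) and the female-predominant Cyp2c12 (-1.12 ± 0.67, adjusted p = 0.182; 0.00941 with the rat block) were not called either, though the cultures of Cyp2c12 lay below every liver.

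Other phase I enzymes moved in the same direction: 15 of 24 fell and 1 rose (median -1.24). Fmo1, a flavin monooxygenase that oxidizes nitrogen and sulfur atoms of drugs, gave 401, 458 and 450.02 in T24 RPH and 5813, 7325 and 7404 in Liver (log2 change -3.97 ± 0.21, adjusted p = 3.4e-08). The carboxylesterase gene Ces1e (-2.97), the steroid reductase gene Akr1d1 (-2.27) and the dim alcohol dehydrogenase gene Adh7 (-4.56, or -2.75 with the offset) were lower too. Ephx1, the microsomal epoxide hydrolase, differed little, with 17199, 16909.6 and 16009 in T24 RPH and 15667, 19567 and 16674 in Liver (-0.04 ± 0.14, adjusted p = 0.821).

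Conjugating enzymes split within their families. Of 18 UDP-glucuronosyltransferases and sulfotransferases tested, 9 fell and 1 rose (median -0.47). Sult1c3 gave 243, 189 and 225 in T24 RPH and 15434, 17927 and 17378 in Liver (log2 change -6.28 ± 0.18, adjusted p = 1.48e-10), and the estrogen sulfotransferase Sult1e1 gave 387, 1008 and 861 in T24 RPH and 31780.0, 29817 and 35866 in Liver (log2 change -5.54 ± 0.32, adjusted p = 4.98e-08). By contrast, the phenol sulfotransferase Sult1a1 gave 25944, 25574 and 27242 in T24 RPH and 22532, 28587 and 28102 in Liver (standard error of the log2 change 0.15, adjusted p = 0.998), and Sult1b1 was also not called (-0.10 ± 0.13, adjusted p = 0.551). Sult1a1 and Sult1b1 thus overlapped between cells and tissue while Sult1c3 and Sult1e1 did not. For Sult1c3 this was a condition of its place among the largest falls.

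Of 28 glutathione S-transferases and acyltransferases tested, 19 fell and 4 rose (median -1.09). Gstm3 was the exception in size, with 8382, 5397 and 8751 in T24 RPH and 185, 121 and 101 in Liver (log2 change 5.81 ± 0.33, adjusted p = 4.26e-08). Gstm7 gave 331, 364 and 439.8 in T24 RPH and 2819, 2206 and 2634 in Liver (log2 change -2.76 ± 0.20, adjusted p = 2.86e-07), while Gstm1 overlapped between the groups (0.18 ± 0.15, adjusted p = 0.333). Members of the mu class thus rose, fell or stayed within the spread. The placental form Gstp1, a marker of altered rat hepatocytes, was lower in T24 RPH, at 482, 341 and 286, against 855, 1256 and 1026 in Liver (-1.52 ± 0.32, adjusted p = 0.00182), with 450.4 in T0 RPH. Glyat, which conjugates glycine to benzoate, fell by 10.4-fold (adjusted p = 2.99e-07).

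Uptake carriers at the blood side of the hepatocyte fell. Slco1b2, the organic anion carrier that takes up statins and bilirubin, gave 573, 609 and 609 in T24 RPH and 12584, 12674 and 11909 in Liver (log2 change -4.38 ± 0.13, adjusted p = 1.48e-10). Slc10a1, the sodium-dependent bile salt carrier NTCP, gave 1562, 2162 and 1667 in T24 RPH and 23784, 29757 and 27570.2 in Liver (log2 change -3.92 ± 0.23, adjusted p = 5.94e-08). Slco1a1, a further uptake carrier, gave 969, 824 and 850.1 in T24 RPH and 2893, 3712 and 4018 in Liver (log2 change -1.997 ± 0.17, adjusted p = 1.03e-06). The sterol exporters Abcg5 (-3.93) and Abcg8 (-3.55) also fell, and in all 16 of 27 transporters fell and 3 rose (median -1.38).

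Other carriers of the bile side were higher or not called. Abcc2, the conjugate pump MRP2, was higher in T24 RPH, at 5492, 8562 and 7037, against 3524, 4960.0 and 4125 in Liver (0.73 ± 0.27, adjusted p = 0.0366), a call that was lost under 10 of the 22 alternative settings. The bile salt pump Abcb11 (-0.57 ± 0.32, adjusted p = 0.154; 0.0374 with the rat block) and the phospholipid flippase Abcb4 (0.30 ± 0.25, adjusted p = 0.332) were not called. Abcc3, an efflux pump of the blood side, was uneven among rats, with 269, 117 and 755 in T24 RPH and 36.7, 27.8 and 145 in Liver, and was not called (2.44 ± 1.10, adjusted p = 0.0822; 0.00102 with the rat block). It was called under 8 of the 22 alternatives, the offset among them.

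Xenobiotic and bile acid sensors are nuclear receptors and related factors that switch on these enzymes and carriers. Of 23 tested, 9 fell and 0 rose (median -0.48). Nr1h4, the bile acid receptor FXR, gave 1293, 1637 and 1479 in T24 RPH and 4399.7, 4057 and 6132 in Liver (log2 change -1.71 ± 0.28, adjusted p = 0.000307). Nr0b2, the FXR target SHP, gave 146, 65.4 and 63.8 in T24 RPH and 4838, 1362 and 1354 in Liver (log2 change -4.61 ± 0.55, adjusted p = 2.26e-05), with the liver of rat 1 above the livers of rats 2 and 3. Nr1i3, the phenobarbital sensor CAR, fell to 421, 273 and 336 in T24 RPH, against 612, 706 and 670.2 in Liver (-0.97 ± 0.25, adjusted p = 0.00703), a call lost after median centring and with the actin ratio as covariate. The pregnane X receptor Nr1i2 (-0.16 ± 0.20, adjusted p = 0.532), the dioxin receptor Ahr (1.26 ± 0.56, adjusted p = 0.0773; 0.018 with the rat block), Ppara (-0.29 ± 0.59, adjusted p = 0.713) and Nfe2l2, the factor NRF2 (-0.24 ± 0.20, adjusted p = 0.338), were not called.

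**Figure D2:**
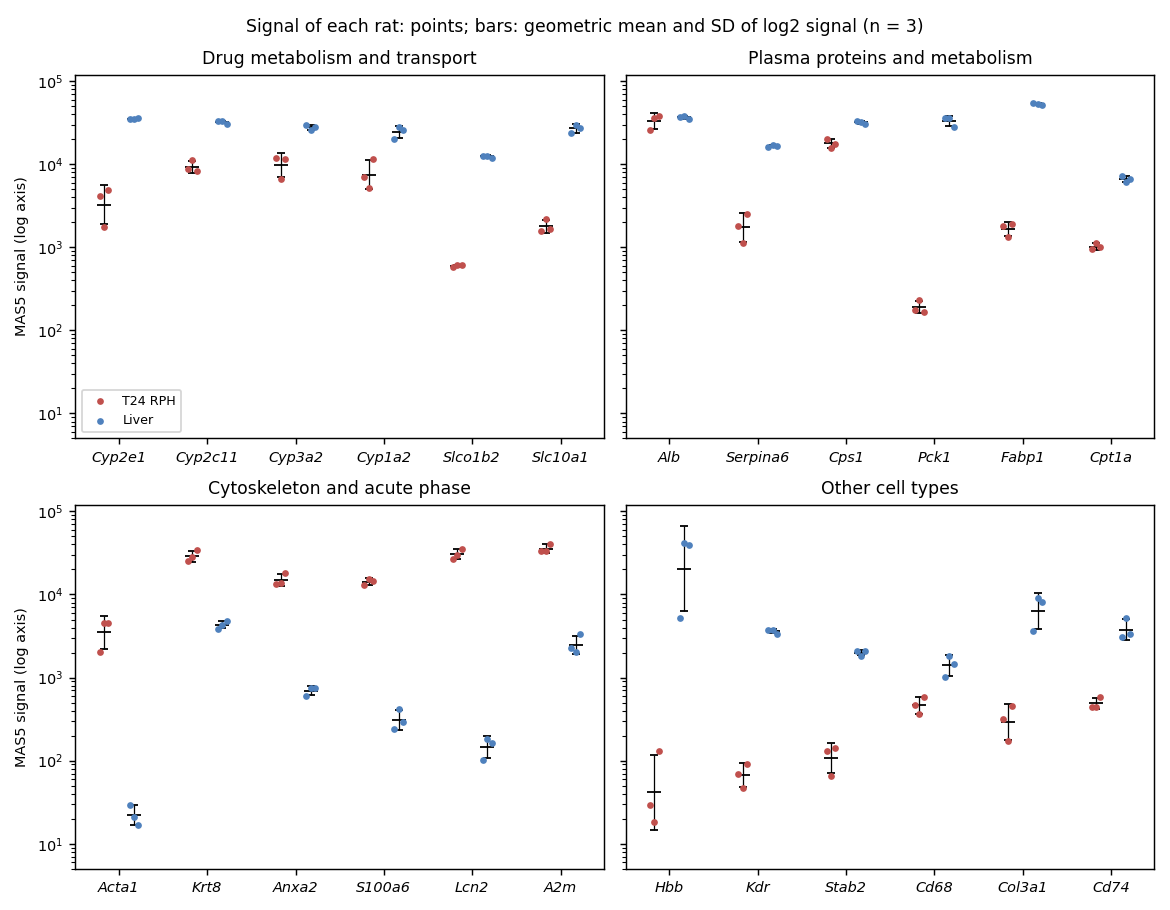
MAS5 signal (vertical, log axis) of each rat (points) in T24 RPH (red, left of each pair) and Liver (blue, right) for 24 named genes in 4 groups, with the geometric mean and the SD of log2 signal (n = 3). Alb overlaps between the groups, Slco1b2 and Fabp1 form tight and distant clusters, and Hbb is lowest among livers in rat 1.

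Among liver-enriched transcription factors, 12 of 32 fell and 3 rose (median -0.43). After median centring 7 were lower and 6 higher, with a median of -0.0104. Cebpa, which holds hepatocytes out of the cell cycle and drives metabolic genes, gave 1176, 1303 and 1293 in T24 RPH and 6005, 8881 and 5495 in Liver (log2 change -2.40 ± 0.30, adjusted p = 2.75e-05). Cebpd, its stress-induced relative, was higher, with 1467, 1477 and 2488 in T24 RPH and 295, 396 and 246 in Liver (log2 change 2.52 ± 0.30, adjusted p = 2.19e-05), and Cebpb was not called (-0.46 ± 0.19, adjusted p = 0.0682; 0.041 with the rat block). Creb3l3, a factor for fasting and lipid genes, gave 1859, 1326 and 2608 in T24 RPH and 9822, 9209 and 10686 in Liver (log2 change -2.41 ± 0.27, adjusted p = 1.23e-05). Onecut1 (HNF6) fell on average (-3.02 ± 0.99, adjusted p = 0.0234), but its liver signals were 782, 5013 and 4755, with rat 1 far below the others, and the call was lost without the liver of rat 2, the liver of rat 3 or the T24 RPH of rat 2, and had an adjusted p of 0.119 without rat 2 in any group. Hnf4a, the central factor of the hepatocyte, gave 7048, 7114 and 7593 in T24 RPH and 11925, 9518 and 9133 in Liver (-0.48 ± 0.19, adjusted p = 0.0473); this call was lost under 17 of the 22 alternatives, and the probe sets of the gene disagreed, with log2 fold changes between -0.482 and 0.264.

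Among secreted plasma proteins, the binding globulins Serpina6 and Serpina7 fell and albumin was not called. Alb gave 25942, 36160.1 and 38419 in T24 RPH and 36862, 37902 and 34896 in Liver (log2 change -0.15 ± 0.20, adjusted p = 0.577), and the thyroxine and retinol carrier Ttr gave 25987, 27112 and 32707 in T24 RPH and 34129, 35819 and 32022 in Liver (-0.25 ± 0.14, adjusted p = 0.158). Of 30 albumin and carrier genes tested, 18 fell, 0 rose and 12 were not called (median -0.72), while quantile normalization gave 12 lower and 3 higher and median centring 8 lower and 2 higher. Serpina6, the corticosteroid-binding globulin, gave 1826, 1133 and 2547 in T24 RPH and 16273, 17026 and 16770.1 in Liver (log2 change -3.26 ± 0.31, adjusted p = 3.15e-06). Serpina7, the thyroxine-binding globulin, gave 52.2, 23.2 and 63.9 in T24 RPH and 2157, 1391 and 2272 in Liver (log2 change -5.48 ± 0.46, adjusted p = 1.08e-06). Both binding globulins lay far below their liver range, unlike albumin. Afamin (Afm, -1.77) and Azgp1 (-1.52) fell by smaller amounts.

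Promoter sequences of the named genes were searched for short motifs. The windows ran 250 bases before to 50 after each start in RefSeq (build GRCr8), both strands were read, and 271 of the 347 named genes were matched. HNF1 sites, which liver-enriched HNF1 factors bind, were searched as the palindrome of GTTAAT, 1 free base and ATTAAC with at most 2 mismatches. They were found in 1.22% of the 27457 promoters of the table, and among named genes in 1 of 73 called higher (Gpx2), 2 of 110 called lower (Cyp2e1 and Hnf4a) and 4 of 88 not called (Alb, Gc, Cfi and Igfbp1). The windows of Cyp2e1 and Alb are shown because both hold a match with 2 mismatches, in capitals, while Cyp2e1 fell and Alb was not called, at chr1:205269797-205269896 (plus strand) and chr14:17907010-17907109 (minus strand).
Cyp2e1: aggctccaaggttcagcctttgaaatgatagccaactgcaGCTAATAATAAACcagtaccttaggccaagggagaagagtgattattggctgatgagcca
Alb: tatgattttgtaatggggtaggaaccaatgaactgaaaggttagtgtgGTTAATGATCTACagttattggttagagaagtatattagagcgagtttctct
A match is a description of the letters in this window and not of binding.

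Coagulation and complement genes fell as a group, 32 of 39 with 0 higher (82.1%, against 23.9% of all genes, median -0.91). Serpind1, the thrombin inhibitor heparin cofactor II, gave 995, 813 and 1316 in T24 RPH and 17333, 16412 and 17226 in Liver (log2 change -4.06 ± 0.20, adjusted p = 1.38e-08), and prekallikrein (Klkb1) gave 1645, 1036 and 2031 in T24 RPH and 12601, 9929 and 12036 in Liver (log2 change -2.92 ± 0.31, adjusted p = 8.33e-06). Fcna, a ficolin made by Kupffer cells, fell as well (-2.49). The abundant complement genes C3 (-0.29 ± 0.14, adjusted p = 0.113) and Cfi (-0.11 ± 0.14, adjusted p = 0.555) were not called. After median centring, 16 members of this list were called lower and 0 higher.

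Apolipoprotein and lipoprotein genes fell in 18 of 26 cases and rose in 2 (median -0.95), with Pltp (-3.10), Lrp1 (-2.38) and Apon (-2.07) lower, and Apoa1 (-0.06 ± 0.15, adjusted p = 0.761) and Apoe (-0.25 ± 0.16, adjusted p = 0.195) not called. Acute phase proteins went both ways: 8 of 29 rose and 8 fell (27.6% each, close to the 23.7% and 23.9% of all genes), with 11 higher and 6 lower under quantile normalization and 12 higher and 3 lower under median centring. Beside Lcn2, the protease inhibitor A2m, a rat acute phase protein, gave 33092, 32934 and 41022 in T24 RPH and 2250.2, 2053 and 3315 in Liver (log2 change 3.84 ± 0.23, adjusted p = 8.12e-08), and the interleukin 1 antagonist Il1rn gave 345, 300.2 and 379 in T24 RPH and 21.1, 14.2 and 13.6 in Liver (log2 change 4.41 ± 0.50, adjusted p = 1.48e-05, or 2.91 with the offset). Haptoglobin (Hp, -0.24 ± 0.16, adjusted p = 0.229) and hemopexin (Hpx, -0.23 ± 0.14, adjusted p = 0.199), both bright in the liver already, were not called.

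Genes of energy and nitrogen metabolism were mostly lower or not called. Fatty acid oxidation and ketogenesis genes fell in 32 of 50 cases and rose in 1 (median -0.98). Fabp1, the liver fatty acid carrier, gave 1799.8, 1345 and 1923 in T24 RPH and 54686, 53651 and 52150.2 in Liver (log2 change -5.002 ± 0.17, adjusted p = 4.05e-10), a 32-fold fall with each group in a narrow range. Cpt1a, which admits fatty acids to mitochondria, gave 943, 1131 and 994 in T24 RPH and 7218, 6083 and 6643 in Liver (log2 change -2.70 ± 0.15, adjusted p = 3.38e-08). The peroxisomal Ehhadh (-3.64), the omega hydroxylase Cyp4a1 (-3.52) and Bdh1 of ketone metabolism (-3.12) were lower too. Etfa (0.25 ± 0.19, adjusted p = 0.283) and Hadhb (-0.34 ± 0.27, adjusted p = 0.305) of the mitochondrial chain were not called.

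Amino acid catabolism had the most one-sided counts of the metabolic lists, 41 of 53 lower and 0 higher (median -1.21). Kmo of the kynurenine pathway gave 230.5, 259.8 and 184 in T24 RPH and 2500.1, 3017 and 3297 in Liver (log2 change -3.71 ± 0.25, adjusted p = 1.85e-07), Uroc1 of histidine breakdown gave 494, 919 and 646 in T24 RPH and 8039, 10220.5 and 7894 in Liver (log2 change -3.70 ± 0.29, adjusted p = 6.25e-07), and Oat fell by 8.15-fold. Tryptophan dioxygenase (Tdo2) stayed within the spread, with 15903, 22059 and 17575 in T24 RPH and 19356, 18519 and 17768 in Liver (-0.02 ± 0.18, adjusted p = 0.949). In the urea cycle, 7 of 13 genes fell. Otc gave 2426, 2334 and 3428 in T24 RPH and 9506, 10463 and 12072 in Liver (log2 change -1.98 ± 0.20, adjusted p = 6.08e-06), Cps1, which makes carbamoyl phosphate, fell less (-0.85 ± 0.16, adjusted p = 0.000867), and Arg1, the last enzyme of the cycle, was not called (0.16 ± 0.14, adjusted p = 0.347).

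Bile acid synthesis had the lowest median of the metabolic lists, -2.19, with 9 of 15 genes lower and 1 higher. Cyp8b1, which directs synthesis to cholic acid, gave 143, 115 and 143 in T24 RPH and 4981, 8485 and 8775 in Liver (log2 change -5.76 ± 0.46, adjusted p = 8.21e-07). Amacr, a racemase of side chain shortening, gave 2375, 2757 and 1836 in T24 RPH and 21555, 22415 and 21443 in Liver (log2 change -3.25 ± 0.22, adjusted p = 2.21e-07). Cyp7a1, the rate-limiting enzyme, varied between rats, with 531, 1733 and 616 in T24 RPH and 18974, 3055 and 4309.8 in Liver (log2 change -2.93 ± 0.67, adjusted p = 0.00296), and its fall was not called with the actin ratio as covariate. Cyp27a1 of the alternative route gave 11409, 14245 and 14819 in T24 RPH and 7276, 10586 and 12270.2 in Liver and was not called (0.45 ± 0.24, adjusted p = 0.143; 0.0281 with the rat block).

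Glucose metabolism was divided. Gluconeogenesis and glycogen genes fell in 12 of 29 cases, among them Pck1, Fbp1 (-2.23) and Pc (-1.60), and 1 rose, with a median of -0.30 that turned to 0.12 under median centring. Of 23 glycolysis genes and transporters typical of other tissues, 10 rose and 3 fell (median 0.83). Pfkfb3, which makes the activator of phosphofructokinase, gave 303, 139 and 261 in T24 RPH and 53.4, 77.4 and 59.7 in Liver (log2 change 1.83 ± 0.34, adjusted p = 0.000761), and brain-type aldolase Aldoc gave 173, 109 and 231 in T24 RPH and 21.1, 21.5 and 17.8 in Liver (log2 change 3.02 ± 0.31, adjusted p = 6.92e-06, or 1.90 with the offset). Pdk4, which blocks pyruvate oxidation in fasting, was the largest fall on that list (-3.72 ± 0.32, adjusted p = 1.5e-06). The hepatic pyruvate kinase Pklr was uneven in the livers, at 2804, 3331 and 9241, and was not called (0.02 ± 0.48, adjusted p = 0.973).

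Lipid synthesis genes had no common direction. Cholesterol synthesis genes were called in 4 lower and 2 higher cases of 23 (17.4% and 8.7%, both below the shares of all genes). Sqle rose (1.32 ± 0.29, adjusted p = 0.00233), and the list median of -0.11 turned to 0.311 under median centring. In fatty acid synthesis and desaturation, 10 of 35 rose and 8 fell (28.6% and 22.9%, close to the 23.7% and 23.9% of all genes). Cidea, a lipid droplet protein typical of brown fat, gave 3032, 2722 and 2862 in T24 RPH and 441, 442 and 393 in Liver (log2 change 2.76 ± 0.18, adjusted p = 1.26e-07), while the elongase Elovl5 gave 4692, 5536 and 5017 in T24 RPH and 19451, 20576 and 19366 in Liver (log2 change -1.96 ± 0.14, adjusted p = 2.61e-07). Fabp4, the adipocyte fatty acid carrier, was higher (4.05), and the desaturase Fads2 lower (-2.13). Oxidative phosphorylation subunits were called lower in 19 of 67 cases (28.4%, against 23.9% of all genes) and higher in 0, with a small median of -0.26. After median centring the counts were 1 lower and 3 higher, on a scale where 1457 of all 10643 genes were lower and 4234 higher. The counts thus depend on the scale. Minus the median of all genes, the list median was -0.263 after median centring and -0.143 after quantile normalization. The largest falls of the list were in Ndufa6 (-1.09) and Ndufc1 (-0.87).

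Of 24 genes of the growth hormone and IGF axis, 12 fell and 1 rose (median -1.41). Igfals, which growth hormone induces, gave 37.8, 119.6 and 52 in T24 RPH and 4133, 7338 and 4290.3 in Liver (log2 change -6.36 ± 0.48, adjusted p = 4.75e-07). Igfbp3, made mostly by non-parenchymal cells of the liver, gave 121, 65.5 and 96.1 in T24 RPH and 1457, 3285 and 2278 in Liver (log2 change -4.60 ± 0.43, adjusted p = 2.82e-06). The male-predominant carbonic anhydrase Car3 gave 3257, 16231 and 3447 in T24 RPH and 39604, 41730.2 and 39029.6 in Liver (log2 change -2.82 ± 0.60, adjusted p = 0.00183), and its fall was not called without rat 1 (adjusted p = 0.0553). Igfbp1 (-0.30 ± 0.42, adjusted p = 0.588) and the urinary protein gene Mup5 (-1.29 ± 0.75, adjusted p = 0.171; 0.00341 with the rat block) were not called.

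The glucocorticoid list was mixed, with 5 higher and 9 lower of 23 (21.7% and 39.1%), in medium that contained dexamethasone. Its called members ran from Lcn2 to Pck1, Sds (-3.70) and Pdk4. The receptor gene Nr3c1 was lower with the probe set used (-1.48 ± 0.22, adjusted p = 0.000131), but its other probe set differed by 0.815 in the other direction, and the fall was lost when probe sets were averaged. Clock genes were called in 2 higher and 2 lower of 17 cases (11.8% each, below the 23.7% and 23.9% of all genes). Per2 was higher (2.02 ± 0.71, adjusted p = 0.0313) in a call that 8 of 22 alternatives did not keep, and Nfil3 was lower (-1.26 ± 0.32, adjusted p = 0.00541, or 0.095 without rat 2), and no source used here gives the hour of sampling. Among liver-secreted hormones and binding proteins, 11 of 25 fell and 6 rose (44% and 24%). The activin subunit gene Inhbb was higher, with 127, 30.1 and 127 in T24 RPH and 5.39, 4.83 and 7.85 in Liver (log2 change 3.74 ± 0.50, adjusted p = 5.79e-05, or 1.61 with the offset), adrenomedullin (Adm) rose (2.54 ± 0.41, adjusted p = 0.000252), and Bmp2 fell (-2.45 ± 0.23, adjusted p = 2.5e-06). Hepcidin (Hamp) gave 30943, 28297 and 30517 in T24 RPH and 28269.8, 25127 and 9622 in Liver and was not called (0.66 ± 0.51, adjusted p = 0.306).

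Most lists of protein production moved the other way. Ribosome biogenesis factors, which build ribosomal subunits in the nucleolus, rose in 61 of 90 cases (67.8%, against 23.7% of all genes) and fell in 1, with a median of 0.73. Pno1 gave 2141, 2809 and 2548 in T24 RPH and 928, 488 and 777 in Liver (log2 change 1.81 ± 0.21, adjusted p = 1.49e-05), and Tsr1 gave 2784, 3362 and 3252 in T24 RPH and 1274, 725 and 764 in Liver (log2 change 1.81 ± 0.22, adjusted p = 2.91e-05); both act in maturation of the small subunit. Polr3g, a subunit of RNA polymerase III, rose as well (1.93 ± 0.26, adjusted p = 6.6e-05).

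Translation factors rose in 32 of 48 cases and fell in 0 (median 0.68). Eif4ebp1, a repressor of cap-dependent initiation, had the largest change, with 5590.0, 6343 and 5700.5 in T24 RPH and 1753, 1257 and 1405 in Liver (log2 change 2.01 ± 0.24, adjusted p = 2.24e-05). Eif1ax (1.34), Eif2b2 (1.23) and Pabpc4 (1.45) rose too, while the bright elongation factor gene Eef1a1 was not called (-0.19 ± 0.16, adjusted p = 0.343). Of 40 ribosomal protein genes, 7 rose (17.5%, below the 23.7% of all genes) and 0 fell with a median of 0.21. Both the quantile and the median scale called more of them higher, 29 and 30, against 2714 and 4234 of all 10643 genes.

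Aminoacyl-tRNA synthetases and ATF4 targets rose in 23 of 40 cases (median 0.79), with the amino acid transporter genes Slc7a1 (2.37 ± 0.53, adjusted p = 0.00273) and Slc7a11 (2.14 ± 0.67, adjusted p = 0.0179) and the one-carbon enzyme Mthfd2 (2.30 ± 0.60, adjusted p = 0.0066) higher. Without rat 3 these 3 rises were not called, with adjusted p between 0.062 and 0.0938, and that of Slc7a11 was lost under 7 of the 22 alternatives. Atf3, a stress-induced factor, gave 712, 960.5 and 856 in T24 RPH and 269, 98.3 and 160.0 in Liver (log2 change 2.37 ± 0.54, adjusted p = 0.00282). In the T0 RPH pellets Atf3 gave 1343, 4435 and 4453, so that its level at 24 h was below that at isolation (-1.83 ± 0.54, adjusted p = 0.0148). Proteasome subunits rose in 28 of 44 cases and fell in 1 (median 0.67). Psmd8 of the regulatory cap gave 10824, 11825 and 11329.6 in T24 RPH and 3156, 3296 and 2917 in Liver (log2 change 1.86 ± 0.14, adjusted p = 4.04e-07), whereas the interferon-linked activator Psme1 was not called (-0.38 ± 0.16, adjusted p = 0.0596; 0.0223 with the rat block). Splicing factors rose in 21 of 48 cases and fell in 1 (median 0.39), with Snrpd3 (1.48) and Hnrnpf (1.33) among them. The rise of Hnrnpu (1.35) came from 1 probe set, as its probe sets ranged between -0.891 and 1.35.

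Genes of cell division were mostly lower or not called. Of 54 S phase and mitosis genes, 23 were lower and 3 higher in T24 RPH than in Liver (median -0.56). The proliferation marker Mki67 gave 17, 24.4 and 28.6 in T24 RPH and 231, 147 and 126 in Liver (log2 change -2.84 ± 0.42, adjusted p = 0.000124, or -1.80 with the offset), and Ube2c, a ubiquitin enzyme of mitotic exit, gave 35.8, 51.3 and 40.4 in T24 RPH and 227, 337 and 348 in Liver (log2 change -2.83 ± 0.28, adjusted p = 4.54e-06). Pcna (0.31 ± 0.25, adjusted p = 0.315) was not called. Cyclin D1 (Ccnd1), which drives entry into the cycle, was lower, with 964, 1094 and 892 in T24 RPH and 2834, 2009 and 2057 in Liver (log2 change -1.21 ± 0.25, adjusted p = 0.00152), a call lost with the actin ratio as covariate (adjusted p = 0.154), while Myc was higher (1.11 ± 0.36, adjusted p = 0.0214) in a call that 8 of 22 alternatives did not keep. The G1 and p53 list went both ways, 11 higher and 7 lower of 36 (30.6% and 19.4%, against 23.7% and 23.9% of all genes). Ccng1, a p53 target, gave 3715, 4039 and 3559 in T24 RPH and 553, 646 and 637 in Liver (log2 change 2.62 ± 0.16, adjusted p = 8.12e-08), Gadd45b was higher (4.50) and Gadd45g lower (-2.89), and Cdkn1a overlapped between the groups (0.95 ± 0.51, adjusted p = 0.142).

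**Figure D3:**
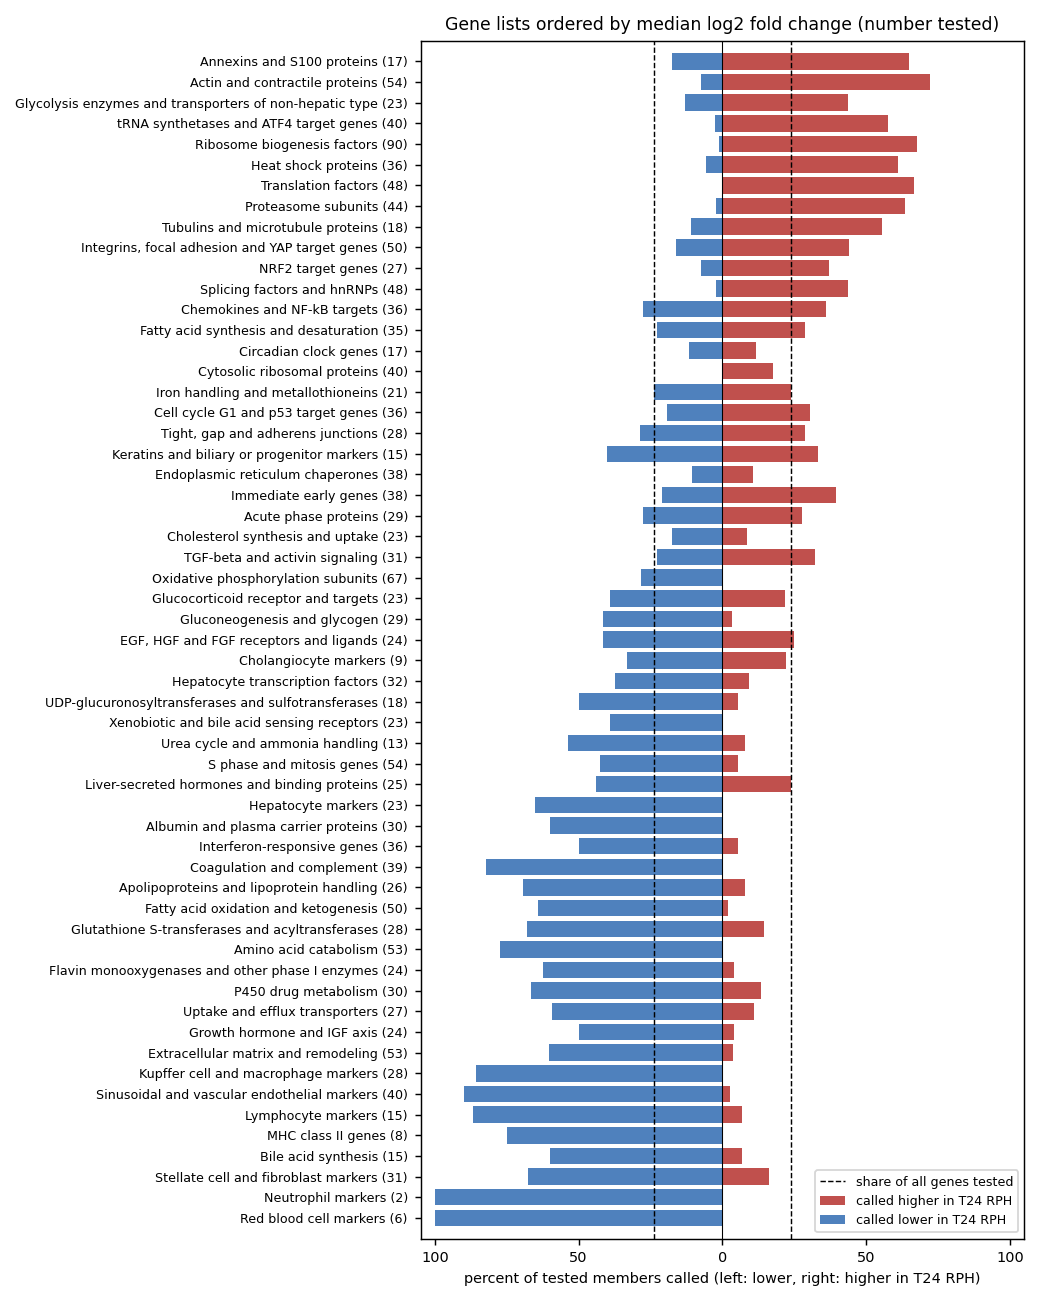
Percent of tested members called lower (blue, left) and higher (red, right) in T24 RPH than in Liver for 57 gene lists (vertical, ordered by median log2 fold change, with the number tested), beside the share of all 10643 genes (dashed lines, 23.9% lower and 23.7% higher). Annexin and S100, actin, ribosome biogenesis and translation lists stand near the top with medians from 0.68 to 1.34, and red cell, neutrophil, stellate and bile acid synthesis lists at the bottom with medians from -5.62 to -2.19.

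Actin and contractile genes had the highest share of rises among the 57 lists. They rose in 39 of 54 cases (72.2%, against 23.7%) and fell in 4, with a median log2 fold change of 1.12. Acta1, normally restricted to striated muscle, gave 2054, 4563 and 4567 in T24 RPH and 29.3, 21.2 and 16.9 in Liver (log2 change 7.32 ± 0.56, adjusted p = 5.54e-07, or 5.90 with the offset). The smooth muscle actin-binding gene Tagln gave 423, 1757 and 837 in T24 RPH and 73.2, 97.4 and 111 in Liver (log2 change 3.20 ± 0.41, adjusted p = 4e-05). Tpm4, a tropomyosin that stabilizes actin filaments, gave 8803, 9169 and 9875 in T24 RPH and 996, 1619 and 1476 in Liver (log2 change 2.80 ± 0.19, adjusted p = 2.32e-07). All 3 genes separated the groups, as 6171 of all 10643 genes did. For Acta1 this was a condition of its place among the largest rises. The cytoplasmic gamma actin Actg1, already bright in Liver, rose less (0.82 ± 0.18, adjusted p = 0.00236, or 0.0563 with the actin ratio as covariate), and caldesmon (Cald1, 0.39 ± 0.18, adjusted p = 0.0934; 0.0244 with the rat block) and thymosin Tmsb4x (-0.64 ± 0.25, adjusted p = 0.0522; 0.00596 with the rat block) were not called.

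Actin genes are known targets of serum response factor, which binds the CArG box (CC, then 6 bases of A or T, then GG). In the same windows a CArG box was present in 1.64% of all promoters. It was found in 4 of 73 promoters of named genes called higher (Acta1, Actg1, Abcc2 and Klf6), in 2 of 110 of those called lower (Lama2 and Gstp1) and in 2 of 88 of those not called. The stretches of the muscle and the cytoplasmic actin gene are shown because both hold the box, printed 5′ to 3′ with the CArG box in capitals, at chr19:68784235-68784334 (minus strand) and chr10:106120992-106121091 (minus strand).
Acta1: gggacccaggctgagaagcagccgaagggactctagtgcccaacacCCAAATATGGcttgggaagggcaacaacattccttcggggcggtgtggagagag
Actg1: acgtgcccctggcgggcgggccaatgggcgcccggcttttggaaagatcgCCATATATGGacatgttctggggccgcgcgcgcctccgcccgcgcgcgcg
The box started 94 bases before the start of Acta1 and 90 bases before that of Actg1.

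Tubulin and microtubule genes rose in 10 of 18 cases and fell in 2 (median 0.65). Tubb6, a widely expressed beta tubulin, gave 3680.4, 2430.3 and 3940.2 in T24 RPH and 209, 183 and 164 in Liver (log2 change 4.15 ± 0.24, adjusted p = 6.28e-08), and Tubb5 rose (1.57 ± 0.21, adjusted p = 5.85e-05). The neuronal type Tubb2b was lower and dim (-1.43 ± 0.34, adjusted p = 0.00364; up to 0.0616 without rat 2 or rat 3), and so was the microtubule destabilizer Stmn1 (-1.59 ± 0.29, adjusted p = 0.000647, or 0.0886 with the actin ratio as covariate). Of 50 integrin, focal adhesion and YAP target genes, 22 rose and 8 fell (median 0.59). Ccn2 gave 16115, 17104 and 21557 in T24 RPH and 546, 545 and 279.5 in Liver (log2 change 5.38 ± 0.48, adjusted p = 1.86e-06), and the stress fiber protein Pdlim1 gave 12144, 14293 and 17266 in T24 RPH and 2110.2, 1489 and 1438 in Liver (log2 change 3.12 ± 0.21, adjusted p = 1.77e-07). Itgb3, the integrin of platelets and endothelium, went the other way (-3.83 ± 0.54, adjusted p = 7.97e-05).

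Annexins and S100 proteins, calcium-dependent partners of membrane and cytoskeleton, had the highest median of all 57 lists, 1.34, with 11 of 17 higher and 3 lower. S100a6 gave 12886, 15356 and 14696 in T24 RPH and 241, 419 and 291 in Liver (log2 change 5.53 ± 0.33, adjusted p = 7.12e-08). Anxa2, a membrane and plasminogen-binding annexin, gave 13372, 13599 and 18097 in T24 RPH and 602, 748 and 744 in Liver (log2 change 4.42 ± 0.20, adjusted p = 4.88e-09). S100a11 (4.29) and S100a10, the partner of Anxa2 (3.57), rose with them. Of the members that fell, S100a8 (-2.05, or -1.35 with the offset; adjusted p = 0.258 without rat 2) and S100a9 (-3.53, or -2.22 with the offset) are proteins of neutrophils.

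The keratin pair of hepatocytes rose together. Krt8 gave 25252, 28041 and 34025 in T24 RPH and 3897, 4338 and 4765 in Liver (log2 change 2.74 ± 0.18, adjusted p = 1.45e-07), and its partner Krt18 gave 22000.3, 27091 and 29887 in T24 RPH and 6686, 5131 and 7060.3 in Liver (log2 change 2.07 ± 0.17, adjusted p = 8.97e-07). Krt19, the keratin of bile ducts, fell to 9.37, 12.2 and 18.7 in T24 RPH, against 92.4, 175 and 222 in Liver (log2 change -3.57 ± 0.50, adjusted p = 7.52e-05, or -1.98 with the offset), and Lgr5, a marker of pericentral and progenitor cells, fell to a dim level (-2.75 ± 0.58, adjusted p = 0.00164; -1.28 with the offset, and not called with the actin ratio as covariate or with the first technical arrays). The list of keratins and biliary or progenitor markers thus held 5 higher and 6 lower of 15 (33.3% and 40%). Junction genes split evenly, 8 higher and 8 lower of 28 (28.6% each, close to the shares of all genes). Desmoplakin (Dsp) rose (1.95 ± 0.17, adjusted p = 1.57e-06), the vascular connexin Gja4 fell (-3.61 ± 0.51, adjusted p = 7.97e-05; -2.35 with the offset), and E-cadherin (Cdh1, 0.52 ± 0.28, adjusted p = 0.143) and beta-catenin (Ctnnb1, -0.06 ± 0.15, adjusted p = 0.754) were not called.

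Stress-related lists differed in kind. Heat shock proteins rose in 22 of 36 cases and fell in 2 (median 0.70), led by the small chaperone Cryab (2.96 ± 0.44, adjusted p = 0.000132), Dnajb4 (2.61 ± 0.32, adjusted p = 2.3e-05) and Hspb1 with 4216, 5379.9 and 4662 in T24 RPH and 1217, 1197 and 1141 in Liver (1.997 ± 0.24, adjusted p = 2.05e-05). Chaperones of the endoplasmic reticulum did not, with 4 higher and 4 lower of 38, both 10.5%, though quantile normalization gave 7 higher and 5 lower and median centring 12 higher and 1 lower; the master chaperone Hspa5 gave 22221, 17897 and 20344 in T24 RPH and 24174, 16933 and 20943 in Liver (-0.03 ± 0.20, adjusted p = 0.919). NRF2 targets, the antioxidant program, rose in 10 of 27 cases (37%, against 23.7% of all genes) and fell in 2 (7.41%, against 23.9%), with a median of 0.48. With rat as a replicate block 16 rose, in a fit that called 2895 of all 10643 genes higher in place of 2525. Sulfiredoxin (Srxn1) gave 3402, 2309 and 3259 in T24 RPH and 794, 408 and 351 in Liver (log2 change 2.60 ± 0.32, adjusted p = 2.91e-05), the glutathione peroxidase Gpx2 was higher (3.65 ± 0.53, adjusted p = 0.000107), and the carbonyl reductase Cbr1 gave 2816, 2621 and 3149 in T24 RPH and 340.3, 378 and 490.4 in Liver (log2 change 2.84 ± 0.25, adjusted p = 1.84e-06). The classical targets Nqo1 (0.42 ± 0.21, adjusted p = 0.122; 0.0379 with the rat block) and Hmox1 (0.69 ± 0.36, adjusted p = 0.128) were not called.

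The antioxidant response element core (TGAC, 3 free bases, then GC) was found in 9 of 73 promoters of genes called higher, 15 of 110 called lower and 16 of 88 not called, against 12.2% of all promoters. The AP-1 site (TGACTCA or TGAGTCA), which overlaps that core in some promoters, was found in 7 of 73, 7 of 110 and 3 of 88, against 4.53%. Windows of Srxn1, from the NRF2 list, and Anxa2, from the annexin list, are shown because both rose and hold the site, with the AP-1 site in capitals, at chr3:161064702-161064801 (plus strand) and chr8:78986082-78986181 (plus strand).
Srxn1: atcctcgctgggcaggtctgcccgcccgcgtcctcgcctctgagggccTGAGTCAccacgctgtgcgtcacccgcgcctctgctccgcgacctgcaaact
Anxa2: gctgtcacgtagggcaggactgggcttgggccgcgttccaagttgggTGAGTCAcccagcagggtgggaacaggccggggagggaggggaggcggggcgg

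Immediate early genes had 15 higher and 8 lower of 38 (39.5% and 21.1%, against 23.7% and 23.9% of all genes). Klf6, a wound-response factor, gave 4117, 4026 and 4629 in T24 RPH and 693, 335 and 189 in Liver (log2 change 3.59 ± 0.33, adjusted p = 2.41e-06), whereas Fos gave 30.8, 6.02 and 13.5 in T24 RPH and 252, 96.4 and 78 in Liver (log2 change -3.19 ± 0.63, adjusted p = 0.00109, or -1.72 with the offset). The fall of Fos was not called with the actin ratio as covariate (adjusted p = 0.0642). Fos had a mean signal of 2107 in the T0 RPH pellets, so that its level at 24 h was far below that at isolation (-7.28 ± 0.63, adjusted p = 1.44e-06). Chemokine and NF-kB target genes were split, 13 higher and 10 lower of 36 (36.1% and 27.8%). Cxcl1, a neutrophil attractant, gave 5254, 3035 and 6591 in T24 RPH and 427, 201 and 221 in Liver (log2 change 4.14 ± 0.50, adjusted p = 2.23e-05), and Cxcl16 was higher (3.21 ± 0.24, adjusted p = 4.59e-07). Ccl5, a chemokine of lymphocytes, was lower (-5.33 ± 0.57, adjusted p = 8.85e-06; -3.48 with the offset).

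Interferon-responsive genes were lower in 18 of 36 cases and higher in 2 (median -0.78). The antiviral Rsad2 gave 226, 73 and 119.6 in T24 RPH and 472, 779 and 2057 in Liver (log2 change -2.86 ± 0.49, adjusted p = 0.000406), and Irf8, a factor of myeloid cells, gave 81.3, 50.1 and 76.5 in T24 RPH and 327, 736 and 472 in Liver (log2 change -2.84 ± 0.31, adjusted p = 1.15e-05). Iron and metal genes were even, 5 higher and 5 lower of 21 (23.8% each, the shares of all genes being 23.7% and 23.9%). The iron transporter Slc11a2 (2.06 ± 0.21, adjusted p = 7.06e-06), the transferrin receptor Tfrc (1.92 ± 0.40, adjusted p = 0.00161) and metallothionein Mt2A (2.28 ± 0.58, adjusted p = 0.00589, not called without rat 1) rose, the last pair not called with the actin ratio as covariate (adjusted p = 0.0502 for Tfrc and 0.398 for Mt2A), and the manganese exporter Slc30a10 fell (-1.998 ± 0.29, adjusted p = 0.000116). In TGF-beta and activin signaling 10 rose and 7 fell of 31 (32.3% and 22.6%, against 23.7% and 23.9% of all genes). The activin antagonist Fstl3 was higher (3.52 ± 0.39, adjusted p = 1.27e-05), and the subunits Inhba (-1.89 ± 0.28, adjusted p = 0.000116) and Inhbc (-2.03 ± 0.36, adjusted p = 0.000493) were lower. Growth factor receptors and ligands had 6 higher and 10 lower of 24 (25% and 41.7%). Pdgfa was higher (2.24 ± 0.25, adjusted p = 1.09e-05) and its receptor genes Pdgfra (-5.38 ± 0.69, adjusted p = 4e-05) and Pdgfrb (-2.69 ± 0.54, adjusted p = 0.00115) were lower.

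Marker genes of the other liver cells were mostly lower at 24 h. Sinusoidal and vascular endothelial markers fell in 36 of 40 cases (90%, against 23.9% of all genes) and rose in 1 (median -1.99). Kdr gave 68.8, 47.5 and 91.2 in T24 RPH and 3788, 3772 and 3371 in Liver (log2 change -5.77 ± 0.47, adjusted p = 9.82e-07), and Stab2, the hyaluronan receptor of sinusoids, gave 131, 66.3 and 143 in T24 RPH and 2063, 1826 and 2110.1 in Liver (log2 change -4.22 ± 0.46, adjusted p = 1.04e-05). Kupffer cell and macrophage markers fell in 24 of 28 cases and rose in 0 (median -1.62). Cd5l gave 647, 519.6 and 619.8 in T24 RPH and 5264, 5297 and 4924 in Liver (log2 change -3.12 ± 0.21, adjusted p = 2.23e-07), while Cd68 was reduced but still at 463, 365 and 588 in T24 RPH, against 1019, 1835 and 1468 in Liver (-1.60 ± 0.23, adjusted p = 0.000105). Cd14 (-0.37 ± 0.32, adjusted p = 0.356) and Lyz2 (-1.15 ± 0.78, adjusted p = 0.241; 0.03 with the rat block) were not called.

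Stellate cell and fibroblast markers fell in 21 of 31 cases and rose in 5 (median -2.33). Lrat, which stores vitamin A, gave 91.4, 18.5 and 60.2 in T24 RPH and 656, 893 and 1192 in Liver (log2 change -4.25 ± 0.77, adjusted p = 0.000551), and the collagen gene Col3a1 gave 316, 173 and 455 in T24 RPH and 3609, 9061 and 8015 in Liver (log2 change -4.46 ± 0.69, adjusted p = 0.000173). Desmin (Des, 0.04 ± 0.40, adjusted p = 0.945) was not called. Extracellular matrix genes as a whole fell in 32 of 53 cases and rose in 2 (median -1.54), with Col14a1 (-4.47) and Lama2 (-4.50, or -2.48 with the offset) lowest, while fibronectin (Fn1), which hepatocytes also make, was not called (0.31 ± 0.17, adjusted p = 0.138). All 6 red cell markers tested were lower. MHC class II genes fell in 6 of 8 cases, lymphocyte markers in 13 of 15 and both neutrophil markers tested, and Cd74, the invariant chain of class II, gave 443, 444 and 591 in T24 RPH and 3062, 5229.7 and 3311 in Liver (log2 change -2.94 ± 0.22, adjusted p = 5.12e-07). Cholangiocyte markers had 2 higher and 3 lower of 9 (22.2% and 33.3%, against 23.7% and 23.9% of all genes), and Epcam was higher (1.05 ± 0.19, adjusted p = 0.000601).

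Summed over each list, on signals that have no common scale between genes, the signal of Kupffer cell markers was 16600 to 21020 in T24 RPH and 47010 to 63400 in Liver, that of stellate markers 13530 to 14010 in T24 RPH and 35180 to 46470 in Liver, and that of endothelial markers 23770 to 30280 in T24 RPH and 33120 to 51850 in Liver. Red cell markers summed to 848.4 to 901.7 in T24 RPH and 8533 to 62040 in Liver. Most of that sum in T24 RPH was Bpgm, and without Bpgm it was 129.4 to 234.8, against 7830 to 59320 in Liver. Hepatocyte markers summed to 364400 to 433700 in T24 RPH and 651800 to 702500 in Liver, and 15 of their 23 genes were lower with 0 higher. None of these sums overlapped between the groups. Most of the endothelial sum in T24 RPH was Fabp5, a fatty acid carrier also on the fatty acid synthesis list. Its mean signal was 17948 in T24 RPH and 8804 in Liver, and it was not called (adjusted p = 0.102, or 0.0251 with the rat block). Without Fabp5 the endothelial sum was 6098 to 9864 in T24 RPH and 27230 to 35200 in Liver. The part of other cells in the fall of shared genes such as chemokine, interferon and matrix genes was not tested.

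To place the 24 h state in time, T24 RPH was also set against the T0 RPH pellets, freshly isolated cells that had not been cultured. Of 10643 genes, 2572 were higher (24.2%) and 1843 lower (17.3%) in T24 RPH than in T0 RPH. Among these, 327 were over 4-fold higher and 365 over 4-fold lower, and 50 were over 16-fold higher and 56 over 16-fold lower. Both comparisons share the T24 RPH samples, so each gives its own values. Against T0 RPH, Slco1b2 differed by -4.32 ± 0.13 (adjusted p = 1.73e-10), Fabp1 by -4.81 ± 0.17 (adjusted p = 4.62e-10), Pck1 by -7.35 ± 0.30 (adjusted p = 2.1e-09) and Cyp2e1 by -3.24 ± 0.32 (adjusted p = 4.46e-06). The P450 list had 21 of 30 lower (median -1.44), amino acid catabolism 43 of 53 (median -1.36), and actin and contractile genes 40 of 54 higher (median 1.21).

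Genes of other cells are given at the same times. Hbb had a mean signal of 41.4 in T24 RPH, 284 in T0 RPH and 20335 in Liver, and differed between T24 RPH and T0 RPH by -2.77 ± 1.05 (adjusted p = 0.0491). The red cell list had 2 of 6 lower against T0 RPH, lymphocyte markers 6 of 15, and extracellular matrix genes 15 lower and 8 higher of 53. Endothelial markers were still lower in 26 of 40 and Kupffer cell markers in 16 of 28; Kdr had means of 66.8 in T24 RPH and 2819 in T0 RPH (-5.40 ± 0.47, adjusted p = 1.62e-06). Kdr was thus bright in the pellets and dim in the cells cultured from them. Summed as above, the signal in T0 RPH was 37740 to 39320 for Kupffer cell markers and 20250 to 32230 for stellate markers. For red cell markers, with Bpgm included, it was 596.1 to 2296.

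**Figure D4:**
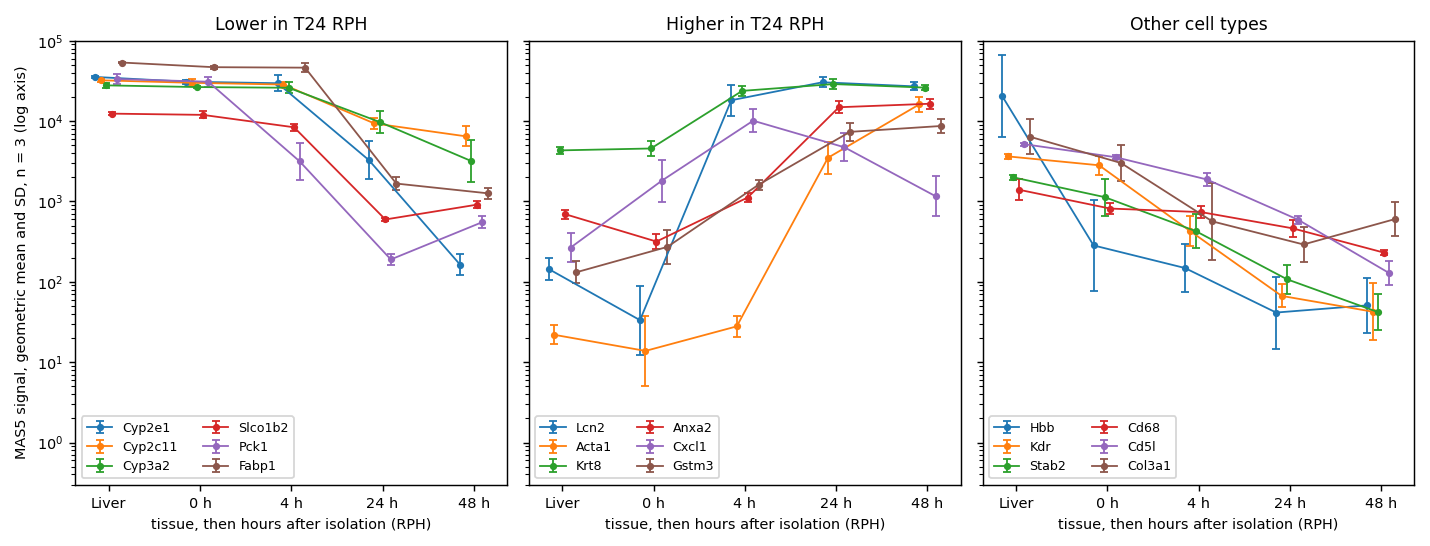
MAS5 signal (vertical, log axis; geometric mean and SD of log2 signal, n = 3) in Liver and in RPH at 0, 4, 24 and 48 h for genes lower in T24 RPH, genes higher in T24 RPH and genes of other cell types. Fabp1 and Slco1b2 change little up to 4 h and are low at 24 h, Lcn2 and Krt8 are high from 4 h, Acta1 is high only at 24 and 48 h, and Hbb is already low at 0 h.

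Between 24 and 48 h fewer genes differed: 267 were higher (2.51%) and 189 lower (1.78%) in T48 RPH than in T24 RPH. Several P450 genes were lower still. Cyp2e1 gave 196, 116 and 191 in T48 RPH, against 4104, 1756 and 4831 in T24 RPH (-4.32 ± 0.32, adjusted p = 1.14e-05), Cyp1a2 gave 753, 937 and 1291 in T48 RPH against 6954, 5189.8 and 11609.8 in T24 RPH (-2.95 ± 0.28, adjusted p = 7.92e-05), and of the P450 list 10 were lower and 2 higher. Cyp2c11 (-0.53 ± 0.19, adjusted p = 0.17) and Slc10a1 (-0.05 ± 0.23, adjusted p = 0.953) were not called between these times. Plasma proteins were lower in 10 of 30 and coagulation and complement genes in 12 of 39, with Serpina6 at -3.71 ± 0.31 (adjusted p = 2.96e-05). Kupffer cell markers were lower in 14 of 28 (median -0.96), among them Cd5l (-2.21 ± 0.21, adjusted p = 0.000104). Oxidative enzymes went the other way in part, with Fmo1 (1.33 ± 0.21, adjusted p = 0.00354), Slc27a2 (0.75 ± 0.19, adjusted p = 0.0382) and Cpt1a (0.57 ± 0.15, adjusted p = 0.0415) higher in T48 RPH. S phase and mitosis genes were higher in 7 of 54 and lower in 0, Mki67 among them (2.07 ± 0.42, adjusted p = 0.014). With rat as a replicate block 761 genes were called between 48 and 24 h in place of 456, and leaving out 1 rat left between 36 (without rat 1) and 181 (without rat 2).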

How the data were processed

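The deposited values are MAS5 signal intensities of Affymetrix RG230-2 arrays, 1 value per probe set and array, which the authors scaled to a trimmed mean of 500 (per the methods, Command Console with MAS 5.0; the submitters' processing notes also name affy, without a version). The liver group was the lobe tied off before perfusion, and the authors left out 1 array at 4 h and 1 at 48 h after quality control. Probe sets were kept when their signal was above the array median in at least 5 of the 43 arrays. Of 31099 probe sets, 20832 were listed with 1 gene, 436 with several and 9831 with none (controls among them), and unlisted ones were not analysed here. For each gene the probe set with the highest mean was used, which left 10643 genes of 14218.

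Technical arrays of a rat were averaged on the log2 scale, and 1 limma model (limma 3.58.1, R 4.3.3) of all 15 samples by group was fitted with moderated variances and Benjamini-Hochberg adjustment, with calls at an adjusted p under 0.05. With 3 samples a group, the smallest p of an exact permutation test is 0.1, so no such test was used. The script was tested on simulated data. The labels give the same 3 rats in every group, so the numbers pair the samples: the median correlation of deviations from the group means was 0.342 for samples of a rat and -0.179 for samples of different rats, while liver and T24 RPH of rats 1 and 2 did not deviate together. Rat as a replicate block was therefore an alternative, and so were other scalings, filters, an offset of 32 added before log2, the mean over a gene's probe sets, the first technical array, the 3' to 5' actin ratio as covariate and leaving out each rat or sample. The cultures of a rat come from 1 isolation. The p-values rest on the spread within groups, pooled over all groups of the fit, livers among them. They treat samples of a rat as independent.

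Named genes were the 12 largest rises and falls above a signal of 500 in the higher group with groups that do not overlap, up to 4 called members of each of 57 gene lists by size of change, up to 2 members not called by signal, and a fixed short list. That list held genes of hepatocytes, the cytoskeleton, the cell cycle and other cell types. Of its genes, 10 did not reach the test and are not analysed here. The samples compared, the gene lists and the named genes were chosen with earlier results of these data known. The number of arrays limits the precision of each value.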

Additional observations from a re-analysis of the deposited data

Results flagged for a closer look

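Examined were the 12 largest rises, the 12 largest falls and the fixed short list of genes, where called against Liver. For 11 of them the difference between T48 RPH and T24 RPH in their effects against Liver was called. Of all 10643 genes tested, 4.28% were called between these times. The differences are given as log2 T48 RPH minus T24 RPH, in which the shared Liver value drops out. The T24 RPH values, from which the calls and the largest rises and falls were taken, stay in them. Among drug-metabolizing enzymes they were -4.32 for Cyp2e1 (163 in T48 RPH, 3266 in T24 RPH), -2.95 for Cyp1a2 (969.7 in T48 RPH, 7483 in T24 RPH) and -1.61 for Cyp3a2 (3188 in T48 RPH, 9721 in T24 RPH). The glutathione transferases moved apart, with -1.53 for Gstp3 and 1.37 for Gstp1, whose signal was 935 in T48 RPH and 361 in T24 RPH. The muscle actin gene Acta1 was higher at 48 h by 2.20 (16123 in T48 RPH, 3498 in T24 RPH), and the decoy receptor Il1r2, high at 24 h, differed by -2.13. Of the genes low at 24 h, Pck1 differed by 1.54 (551 in T48 RPH, 189.7 in T24 RPH), the uptake carrier Slco1b2 by 0.61 and Cpt1a by 0.57, all higher in T48 RPH. The macrophage marker Cd68 differed by -1.004 (231 in T48 RPH, 463 in T24 RPH). Groups of 3 samples are too small for a check of single outlying samples.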

How the results depend on the processing

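Genes changed between T24 RPH and Liver numbered 3215 with the 3' to 5' actin ratio as covariate, in place of 5067, and between 3407 and 4648 when a rat or a sample was left out; the share of them that were higher, 49.8%, was 53.4% after quantile normalization, 74.4% after median centring, 43.5% without the filter, 54.1% with the stricter filter and 48.1% with only these groups in the fit, and 45.8% to 50.9% with a rat or sample left out. Between T48 RPH and T24 RPH the 456 genes became 761 with rat as a replicate block, 888 with that block and the livers of rats 1 and 2 exchanged, 303 with only these groups in the fit, 166 at an adjusted p under 0.01, and 36 (without rat 1) to 376 with a rat or sample left out. With the replicate block, 5059 of the 5067 calls against Liver were also made in the same direction, and 23 more of the named genes were called. Of 347 named genes, 234 were called, and 182 of these kept their call under every alternative while 52 lost it under 1 or more, 32 of them with the actin covariate. The direction turned in Sc5d, at -0.15 as the mean over its probe sets, and in Bhlhe40, at -0.13 with the actin covariate; the cause was not tested. Of the named and called genes with several probe sets, 6 of 50 had probe sets of opposite sign (Nr3c1, Hnrnpu, Sc5d, Scap, Masp1 and Hnf4a). Signals near or below 32 limit the size of a fold, and depth has no counterpart on these arrays.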
